A study of Drosophila melanogaster with 8 samples.

Results

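The broad RNA polymerase II (RNAPII) domains of S2 cells were the 99 regions of at least 1500 bp at which RNAPII enrichment was called without a break. They were taken from a table of 14357 entries, each 1 peak of 1 of 2 peak lists, in which 731 entries reached that width. Of those, 542 carried a repeat annotation and a further 42 a replication-dependent histone gene as the nearest named gene, and both kinds were left out. The remaining 147 entries, 1.02% of the table, were merged by overlap into 99 domains of the 7911 loci that all entries formed. The members were thus chosen by a measured width, and the width comes from the same immunoprecipitations as the occupancy values, so everything below is a description and nothing about the domains as a list was tested.

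The libraries were made by ChIP-seq, the sequencing of DNA that an antibody pulls down with its target, here RNAPII. S2 cells are a Drosophila melanogaster line derived from embryos, with features of blood cells. The cells had a knockdown of the linker histone H1 (KD H1) or were treated against LacZ, a bacterial gene absent from flies that serves as the control. The labels give neither the reagent nor the duration of the knockdown, nor which form of RNAPII the antibody binds. Each condition had 2 RNAPII libraries and 2 input libraries, 8 in all, from chromatin fixed in 1.8% formaldehyde for 10 min. The deposited files hold 1 mean value per condition at each site and 1 peak list per condition called on pooled libraries. Depth and values per library are therefore unknown here, no standard deviation can be given, and the authors' p-values measure the spread between libraries that may not be separate cultures. Positions are in dm3.

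RNAPII assembles at a gene's transcription start site (TSS), and at many Drosophila genes it pauses shortly downstream of it before it elongates. A peak caller therefore usually reports a narrow peak at the start of an active gene. A peak can grow wide where polymerase is dense along the gene body, beyond the cleavage site, or over neighbouring genes whose peaks run into each other. A wide peak can also be a stretch of low, even enrichment, and a width alone does not tell these apart. H1 binds the DNA between nucleosomes and is abundant in heterochromatin.

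The domains were 1510 to 5280 bp long, with a median of 1791 bp (quartiles 1626.5 and 2323 bp), and covered 216177 bp together. The other 4980 loci without a repeat or histone annotation had a median width of 531 bp. Wide entries made up 4.94% of the 7472 knockdown entries and 5.26% of the 6885 LacZ entries, and the exact 95% intervals of these shares overlapped (4.46 to 5.45% and 4.74 to 5.81%). Among the entries that became domains, 89 came from the knockdown list and 58 from the LacZ list.

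Most domains lay at the start of a gene, but fewer than among narrow loci. The annotation placed 61 domains (61.6%) at a promoter, 11 at a transcription termination site, 10 between genes, 9 in introns, 5 in exons, 1 in a 5′ untranslated region and 1 in a 3′ untranslated region, and 1 had none of these. At the other loci the shares were 78.8% at promoters, 4.96% at termination sites and 3.25% between genes. The centre of a domain lay within 1000 bp of an annotated TSS at 77 domains. The mitochondrial domain, which has no annotated TSS in the table, is counted with the remaining 22, called distal below. The neighbourhood of the centromeres held a larger share of the domains than of the other loci: the 1 Mb windows at the centromeric ends of the arms held 16.2% and 2.83%. A further 8 domains lay on placed heterochromatic scaffolds, 3 on the unplaced scaffold U, 5 in the histone gene array of 2L, 1 on the mitochondrial genome, and 66 on the rest of the chromosome arms.

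Many domains near a TSS carried the names of 2 genes. This was counted within 1000 bp of a TSS and outside the histone array, where both the annotated feature and the nearest TSS named a gene. They named different genes at 33 of 72 such domains (45.8%, exact 95% interval 34 to 58%), against 1226 of 4282 other loci (28.6%, 27.3 to 30%). A wider region has more room for a second gene, and no comparison at equal width was made. Genes that are, or in the Release 6 gene table overlap, a small nucleolar RNA (snoRNA) gene were counted the same way. They were 11 of 72 domain genes (15.3%, 7.88 to 25.7%) and 72 of 3982 other genes (1.81%, 1.42 to 2.27%). Of the 11, snoRNA:Me18S-C419, snoRNA:Me28S-A1322, snoRNA:Me28S-A2113 and snoRNA:U14:30Ea are themselves snoRNA genes. snoRNAs guide chemical modification of ribosomal RNA and are often encoded within introns of host genes of the translation machinery.

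The strand and position of the named TSS could be derived from the authors' signed distances at 46 domains. The TSS lay inside the domain at all 46. A domain reached a median of 912.5 bp upstream of it (159 to 2278 bp) and 1059 bp downstream (306 to 2156 bp). The named TSS is the one nearest to the centre, so these lengths follow in part from how it was chosen. At the 1244 narrow loci for which this could be done, the medians were 199 bp upstream and 303.9 bp downstream. The point of highest enrichment, the summit, sat within 250 bp of the named TSS in the LacZ list at 21 of 46 domains (45.7%, exact 95% interval 30.9 to 61%) and at 1133 of the 1244 narrow loci (91.1%, 89.4 to 92.6%). A summit lies inside its peak, and a narrow peak leaves little room beyond 250 bp. This contrast therefore follows in part from width, and no comparison at equal width was made. The summit was more than 250 bp upstream of the named TSS at 18 domains and more than 250 bp downstream at 7. Which start the signal at those 25 summits came from was not tested. Narrow loci had a median summit 51.2 bp downstream of the TSS.

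The summits hardly moved between conditions. The knockdown and LacZ summits of the 46 domains lay within 50 bp of each other at 44, with a median difference of 2 bp. The exceptions were tsh, which encodes a zinc finger transcription factor of trunk identity, with summits at 62 bp in LacZ and 532 bp in the knockdown, and the start of Haspin, a kinase of histone H3, with summits at 68 bp and -115 bp. With 1 pooled list per condition these shifts have no replicate check.

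**Figure D1:**
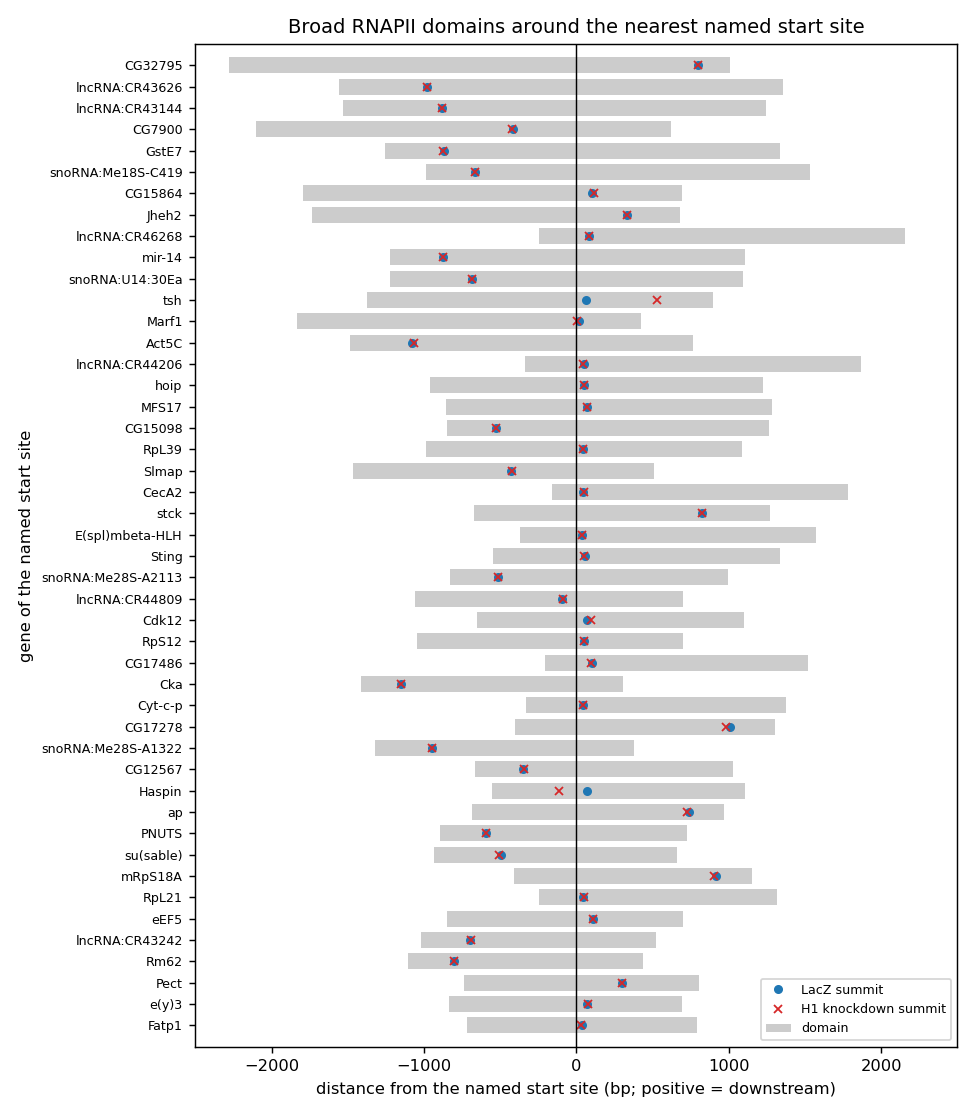
Each of the 46 broad domains with a derived strand is a grey bar around its nearest named TSS (x axis, bp; positive is downstream), longest at the top, with the LacZ summit as a blue dot and the knockdown summit as a red cross. The summits of both conditions coincide within 50 bp at 44 domains, and 18 LacZ summits lie more than 250 bp upstream of the named start.

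Occupancy is given as the authors' DiffBind concentration, a log2 mean read count per region, in which a wider region collects more reads. The domains ranged from 9.12 to 11.69 in mean concentration with a median of 10.1, and the other loci had a median of 8.34. Divided by width, on the scale of log2 concentration per kb, the domains had a median of 9.15 and the other loci 9.25. The high concentration of domains therefore went with their width rather than with a higher density over the whole width. Their highest summits were often strong all the same. In the LacZ list the median fold enrichment over input was 8.52 at domains and 3.03 over all entries. In the knockdown list these medians were 10.8 and 3.64. A domain's value is the highest of its peaks, while the list medians are over single peaks, repeats and histone genes included. In the LacZ list, domains within 1000 bp of a TSS had a median of 12.6, and the distal ones with a LacZ peak 2.39. These enrichments are the authors' ratios and are compared only within a list.

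The difference between conditions was small at every domain. The fold, which is the log2 concentration in the knockdown minus that in LacZ from the authors' deposited table, ranged from -0.12 to 0.49 with a median of 0.10 (quartiles 0.05 and 0.18). At the other loci the median fold was 0.15 (0.06 and 0.26), and over all entries of the authors' deposited table it was 0.08. The fold was above 0 at 86 of 99 domains (86.9%) and at 87.4% of the other loci. The scaling of the libraries is not known, so equal values in both conditions may not mean equal occupancy, and folds are best read relative to other sites.

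The authors called an entry when its unadjusted p was under 0.05, and 3.99% of all 14357 entries were called higher and 0.0557% lower. By that rule 9 domains (9.09%, exact 95% interval 4.24 to 16.6%) were called higher in the knockdown and 0 lower, beside 6.83% of the other loci called higher. The interval covers counting error only and includes the share of the other loci. It lies above the share of all entries, but that share is per unmerged entry, with repeats and histone genes included. With the authors' false discovery rate (FDR) over all entries, no domain was below 1, and 0 of 14357 entries passed an FDR of 0.05, the smallest being 0.0718. Of the other loci, 756 had a mean concentration at or above that of the weakest domain; their median fold was 0.07 and 4 of them (0.529%) were called higher. Concentration grows with width, so at equal concentration the narrower locus is the denser one. These 756 loci are thus not matched to the domains in density or enrichment, and their share called is not a like comparison.

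The 9 domains called higher had LacZ enrichments of 2.12 to 5.04, and 4 of them lay in the windows next to centromeres. The authors' deposited table gave MFS17, a predicted membrane transporter gene on 2RHet (1334762 to 1336904), a concentration of 9.57 in LacZ and 10.00 in the knockdown, a fold of 0.43 and a p of 0.00801, the smallest of any domain. CG32795, a gene of the X arm (2683593 to 2686878), had the highest fold, 0.49 (10.16 in LacZ, 10.65 in the knockdown, p = 0.0390) in the authors' deposited table. Trf4-1, which encodes a noncanonical poly(A) polymerase of RNA surveillance, went from 9.16 to 9.56, a fold of 0.40 (p = 0.0224) in the authors' deposited table. The widest LacZ peak of these 3 was 771, 517 and 479 bp long, and each passed 1500 bp in the knockdown list.

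Gene starts and intergenic sites made up the other called domains. At gene starts, folds in the authors' deposited table were 0.35 for mRpS18A, a mitochondrial ribosomal protein gene (p = 0.0240), and 0.34 for CG17486 in the pericentric region of 2R (p = 0.0244). Nipped-B, the cohesin loader gene in the pericentric region of 2R, had a fold of 0.32 (10.13 in LacZ, 10.44 in the knockdown, p = 0.0466) in the authors' deposited table. lncRNA:CR46268, which overlaps CG17490 near the centromere of 2L, had a fold of 0.31 (p = 0.0384) in the authors' deposited table. The called distal domains both lay between genes: one on 3L, 3949 bp from the TSS of CG12483 (fold 0.39, p = 0.0195), and one on 2L from 22887138 to 22890257, 14149 bp from the TSS of cta (fold 0.35, p = 0.0241), in the authors' deposited table. The Slmap start, next in order of p, had a fold of 0.30 and a p of 0.0576 and was not called in the authors' deposited table.

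The domains with a fold below 0 numbered 13, none called lower, and 10 of them were distal. The lowest fold in the authors' deposited table was -0.12 at an intergenic site of 3RHet, 7119 bp from the TSS of Tim17b (9.69 in LacZ, 9.57 in the knockdown, p = 0.410). An intron of Ir41a on 2R, an ionotropic receptor gene, had a fold of -0.11 (p = 0.475) in the authors' deposited table. Introns of Haspin and of Parp, the poly(ADP-ribose) polymerase gene, each had -0.09 in the authors' deposited table (p = 0.431 and 0.564), and the intergenic site nearest to RYa had -0.08 (p = 0.587). These 5 distal sites had LacZ enrichments of 1.76 to 2.63, below the list's median of 3.03. Among the 3 near a TSS, CG15864 and Idgf2, an imaginal disc growth factor gene, each had -0.07 and CG7900 had -0.01 in the authors' deposited table.

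The folds were described by position. Domains within 1000 bp of a TSS had a median fold of 0.11, and 7 of the 77 were called higher, beside 6.49% of the other loci of that class. The 22 distal domains had a median of 0.035, and 2 were called, beside a median of 0.02 and 8.94% of the other distal loci. The 13 domains near a TSS in pericentric windows or on scaffolds all had a fold above 0, from 0.07 to 0.43 with a median of 0.27, and 4 were called higher. The 166 other loci of that class had a median of 0.195 with 13.3% called. The 14 distal domains of the same compartments had a median of 0.00, from -0.12 to 0.35, with 7 above and 7 below 0 and 1 called, and the 412 other loci of that class a median of 0.02 with 12.4% called. On the rest of the arms, the 59 domains near a TSS had a median of 0.09 with 3 called, and the 4095 other loci there 0.16 with 6.11% called.

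**Figure D2:**
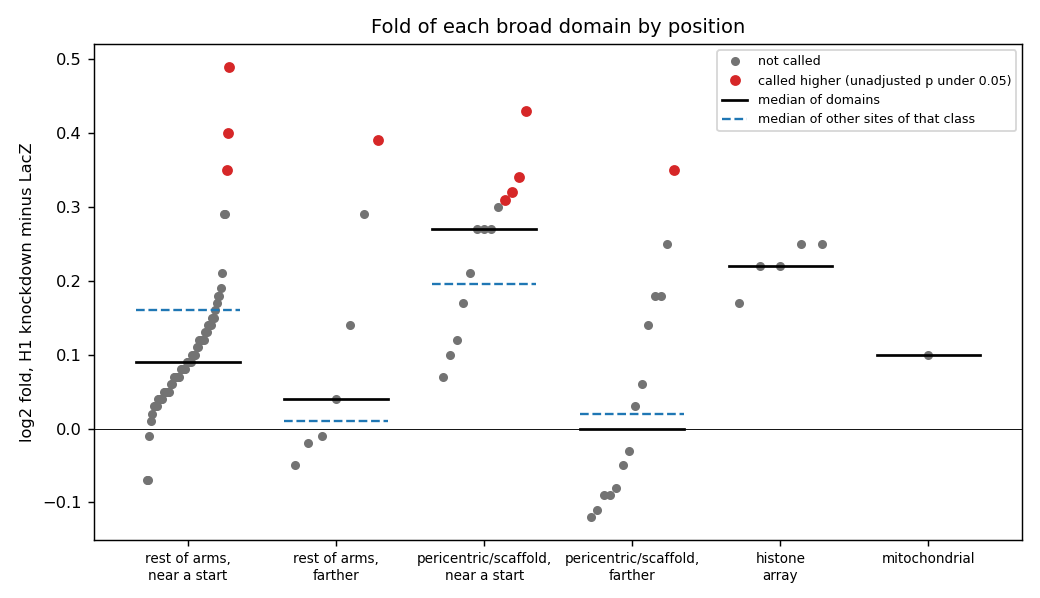
Each point is a broad domain, with its log2 fold (H1 knockdown minus LacZ) on the y axis and its position class on the x axis, red where the authors called it higher; black lines are medians of domains and dashed blue lines medians of the other sites of that class. Domains near a TSS in pericentric windows or on scaffolds have a median of 0.27, and distal ones there 0.00.

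Genes of ribosome components and translation formed a group of 12 domains near a TSS, sorted by role after the values were seen. All 12 folds were above 0, from 0.02 to 0.35 with a median of 0.115, and only mRpS18A was called. The widest belonged to snoRNA:Me18S-C419, a snoRNA gene on 3LHet (2520 bp, 10.28 in LacZ and 10.44 in the knockdown, fold 0.17 in the authors' deposited table). snoRNA:Me28S-A1322, at the gene of elongation factor eEF1alpha1 on 2R, had the smallest fold of the group, 0.02 (10.25 and 10.27) in the authors' deposited table, and a LacZ enrichment of 27.2. eEF5, which encodes the hypusine-carrying elongation factor, had 9.95 in LacZ and 10.08 in the knockdown, a fold of 0.12 in the authors' deposited table. RpL39, RpL26, RpL21 and RpL5, proteins of the large ribosomal subunit, had folds of 0.10 to 0.12 in the authors' deposited table, and RpLP1, a protein of the ribosomal stalk, 0.07. Of the 73 cytosolic ribosomal protein genes that had an entry within 1000 bp, 6 were named at a domain. Others appeared under another name, RpL15 and RpL30 by the snoRNAs within them. RpS21 was the nearest gene of a LacZ piece of the CG2991 domain, and RpL12 the annotated gene of a LacZ piece of the RpL39 domain.

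The 4 domains grouped as small RNA genes, again sorted after the values were seen, had folds of 0.04 to 0.10. The domain of mir-14, a microRNA gene on 2R, was 2329 bp wide with 10.77 in LacZ and 10.81 in the knockdown, a fold of 0.05 in the authors' deposited table. snoRNA:U14:30Ea, in the host gene Uhg2, had 10.31 and 10.41 and a fold of 0.09, and Uhg1, another snoRNA host, 9.82 and 9.92 with 0.10, in the authors' deposited table. snRNA:U5:34A, a gene for the U5 RNA of the spliceosome, had a fold of 0.04 in the authors' deposited table; it lies beside a U2 gene, and both belong to families of near-identical copies whose reads may be shared. No domain of the 4 in this group was called. The group does not hold every small RNA gene. snoRNA:Me18S-C419, snoRNA:Me28S-A1322 and snoRNA:Me28S-A2113, placed with ribosome and translation, had folds of 0.17, 0.02 and 0.04 in the authors' deposited table. The distal snoRNA:Psi28S-2996 had 0.06. The 5 domains of the histone array, also named by small RNAs, had higher folds than the group, 0.17 to 0.25.

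The 7 domains at long noncoding RNA starts had folds from 0.03 to 0.31, with a median of 0.12 and 1 call. The highest mean concentration was that of lncRNA:CR43626 on 3L (2917 bp, 10.86 in LacZ, 10.90 in the knockdown, fold 0.04 in the authors' deposited table), whose LacZ summit lay 978 bp upstream of the named start. lncRNA:CR43144 on 2L followed with 10.60 and 10.71, and its summit lay 884 bp upstream of the named start. lncRNA:CR44206 on 2R had its summit 48 bp downstream of its start and a fold of 0.07 in the authors' deposited table. The 2 pericentric ones on 2L besides the called lncRNA:CR46268 were lncRNA:CR44809 (fold 0.21) and lncRNA:CR43242 (fold 0.27) in the authors' deposited table, and neither was called.

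Genes of transcription, chromatin and RNA processing made up the largest group near a TSS, 16 domains with folds from 0.01 to 0.40 and a median of 0.135. Df31, which encodes a chromatin-binding decondensation factor, had the highest LacZ enrichment of any domain, 76.7, with concentrations of 10.19 and 10.23 and a fold of 0.04 in the authors' deposited table. hoip, a component of small nuclear and nucleolar ribonucleoproteins, had the highest concentration of the group, 10.70 in LacZ and 10.76 in the knockdown, and Kdm2, a histone demethylase gene, had a fold of 0.05 at an enrichment of 40.2, in the authors' deposited table. The least enriched of the group was ap, a homeobox gene of dorsal wing identity, with 1.78 in LacZ and a fold of 0.08 in the authors' deposited table. Trf4-1 followed with 2.12, and then e(y)3, a subunit gene of a chromatin remodelling complex, with 3.52 and a fold of 0.18 in the authors' deposited table. Of this group Trf4-1 and Nipped-B were called.

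Metabolic and transport genes gave 9 domains with folds of 0.05 to 0.43 (median 0.09), of which MFS17 was called. Pgk, the phosphoglycerate kinase gene of glycolysis, had the widest domain near a TSS outside the histone array: 4491 bp on 2L, shared with Bacc, with 11.06 in LacZ, 11.35 in the knockdown, a fold of 0.29 and a p of 0.160 in the authors' deposited table. GstE7 and GstE8, glutathione S-transferase genes of detoxification, shared a domain of 2592 bp with a fold of 0.09 in the authors' deposited table. Jheh2, a juvenile hormone epoxide hydrolase gene, had 10.43 and 10.49, and Cyt-c-p, the somatic cytochrome c gene, 9.88 and 9.93, folds of 0.06 and 0.05 in the authors' deposited table. Shmt, which makes one-carbon units from serine, and fabp, a fatty acid binding protein gene, had folds of 0.09 and 0.08 in the authors' deposited table.

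The 4 cytoskeleton and adhesion domains varied little. Act5C, the main cytoplasmic actin gene, had 10.66 in LacZ and 10.70 in the knockdown, a fold of 0.03 in the authors' deposited table, with its summit 1077 bp upstream of the named start and an enrichment of 48.8. stck (an adaptor at integrin adhesions), AnxB11 (an annexin, sharing its domain with hang) and hts (adducin) had folds of 0.07, 0.13 and 0.14 in the authors' deposited table. In the 7 signalling and immunity domains the folds ran from -0.07 to 0.18 and none was called. They included E(spl)mbeta-HLH, a Notch target repressor (10.39 and 10.46, fold 0.07), kuz, a protease that cleaves Notch (fold 0.03), and Stat92E, the JAK/STAT transcription factor (fold 0.07), in the authors' deposited table. CecA2, an antimicrobial peptide gene, had a fold of 0.16 but a p of 0.781 in the authors' deposited table. The 7 domains with folds of 0.17 or 0.18 had p-values of 0.189 to 0.282 in the authors' deposited table. CecA2 lies among similar cecropin genes, between which reads may be shared.

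The domains of highest mean concentration, a measure that grows with width, were not at ordinary gene starts. The largest lay on 3L from 16609665 to 16614944, 5280 bp over the 3′ untranslated region of Abl, a tyrosine kinase gene, and 3732 bp from the TSS of Mo25. It had 11.70 in LacZ and 11.68 in the knockdown, a fold of -0.02 in the authors' deposited table, and was nearly as wide in the LacZ list (5258 bp). An intron of CG3635 on 2L (4897 bp, 11.28 and 11.46, fold 0.18) and an intergenic site near Slmap (4868 bp, 11.29 and 11.43, fold 0.14) had the next highest concentrations outside the histone array in the authors' deposited table. The CG3635 domain also overlapped 1 entry with a repeat annotation. Per kb, the sites at Abl, CG3635 and Slmap had 9.29, 9.08 and 9.08, beside a median of 9.15 over the domains. The highest value per kb was 9.67, at the Kdm2 promoter. The intron of Haspin on 2RHet was 5138 bp wide with 10.98 and 10.89, and at an enrichment of 2.18 in LacZ it was a long stretch of low enrichment.

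Leaving out entries by gene name did not keep the histone repeats out. The array of 2L still held 5 domains, since their nearest TSS was that of a small RNA, snmRNA:430s or another of its copies, which overlap histone genes. These had concentrations of 10.85 to 11.48, LacZ enrichments of 2.63 to 4.91 and folds of 0.17 to 0.25, with 0 calls, in the authors' deposited table. The units share nearly all their sequence, so reads cannot be assigned to 1 copy and the 5 values are not independent. The mitochondrial domain (1364 to 5457) was found in the knockdown list alone, yet its concentrations were 11.25 in LacZ and 11.35 in the knockdown, a fold of 0.10 in the authors' deposited table. The mitochondrial genome is transcribed by its own polymerase, not by RNAPII.

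Nearly all domains existed in both conditions, and they were usually wider in the knockdown list. At 98 of 99 domains both lists had a peak. The bases covered by peaks were more in the knockdown at 80 domains, more in LacZ at 18 and equal at 1, with a median ratio of 1.10 (0.302 to 3.53). Cover was counted inside the bounds of a domain, which its qualifying entries set. Where the qualifying entries came from 1 list only, that list covered the whole domain, so these counts are set in part by the choice. The equal domain, in the histone array, had a knockdown peak of 3774 bp that ran past its 2339 bp. Narrow loci, too, were mostly wider in the knockdown list. Of the narrow loci with 1 peak per list, the knockdown peak was the wider at 3461 of 3858 (89.7%, median width ratio 1.10). The same held at 52 of 67 such domains (77.6%, median ratio 1.05). The depth of the libraries, with which called widths can change, is unknown here, and its part was not tested.

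By the entries that qualified, 48 domains were wide in both lists, 41 in the knockdown list only and 10 in the LacZ list only. Their median folds were 0.09, 0.14 and -0.05, with 3, 6 and 0 called higher. At 7 of the 51 seemingly unshared ones, the other list also had a peak over 1500 bp that was left out for its repeat or histone annotation; counting every peak, the numbers were 55, 35 and 9, and the median folds 0.10, 0.12 and -0.05. Width and fold come from the same libraries, so that order is set in part by the choice. Apart from the mitochondrial domain, CG32795 gained most: LacZ peaks covered 932 bp and knockdown peaks 3286 bp. MFS17 went from 771 to 2143 bp, and Marf1, a regulator gene of RNA stability, from 1069 to 2256 bp with a fold of 0.27 in the authors' deposited table. In the other direction the Ir41a intron went from 1530 bp in LacZ to 462 bp in the knockdown, and the site near Tim17b from 2276 to 992 bp.

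**Figure D3:**
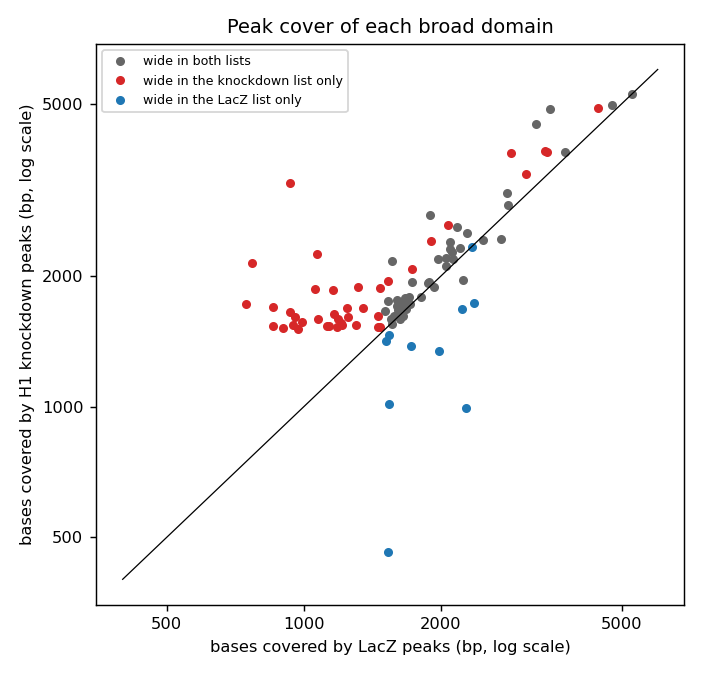
Bases of each broad domain covered by peaks of the LacZ list (x axis, bp, log scale) and of the H1 knockdown list (y axis, bp, log scale), coloured by the list in which its qualifying entries were wide; the line marks equal cover. Of the 99 domains, 80 are covered more in the knockdown and 18 more in LacZ; the mitochondrial domain, with 0 bp in LacZ, is not drawn. Cover is counted inside bounds set by the qualifying entries, so a list that is wide alone covers the whole domain.

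Part of the extra width in the knockdown list was the joining of neighbouring peaks. At 28 domains a single knockdown peak lay over several LacZ peaks, and the reverse occurred at 3, those of RpLP1, nompB and RYa. A locus split in one list can qualify by its joined peak in the other, and more qualifying entries came from the knockdown list (89 against 58). These counts are thus set in part by the choice, and no such count at the other loci is given here. Of the 28, 25 lay outside the histone array. Their LacZ gaps had a median of 365 bp (262 to 785 bp), their LacZ summits spanned a median of 1063 bp (473 to 3383 bp), and 13 named more than 1 gene among their pieces. The fold of the pieces differed within a domain by a median of 0.15 (0.00 to 0.37). The piece of lowest concentration had the higher fold at 15 domains, the lower at 9 and an equal one at 1, so the weaker piece did not always rise more.

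The pieces of the Pgk domain differed in enrichment and in fold. The authors' deposited table gave the strong piece, with an enrichment of 27.0, a concentration of 9.90 in LacZ and 9.97 in the knockdown, a fold of 0.07. The weak piece of 1743 bp at the far end, with an enrichment of 1.68, had 9.51 and 9.93, a fold of 0.42 that was called (p = 0.0121), and the short piece at Bacc 0.36 (p = 0.308), in the authors' deposited table. Both the strong piece and the weak piece of 1743 bp were annotated to a Pgk promoter. The whole domain's fold of 0.29 thus averaged unequal pieces. In Pect, a phospholipid synthesis gene, the strong piece (enrichment 32.8) had 0.01 and the weak piece at CG16972 (2.32) had 0.28 in the authors' deposited table. In fabp the strong piece had 0.03 and the weak piece 0.18, and in Stat92E the strong piece had -0.01 and the weak piece 0.18, in the authors' deposited table. CG32795 had 0.13 at its better enriched piece (3.68) and 0.50 at the other (1.53), and Trf4-1 had 0.50 (p = 0.00706) and 0.29 at pieces of near-equal enrichment, in the authors' deposited table.

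**Figure D4:**
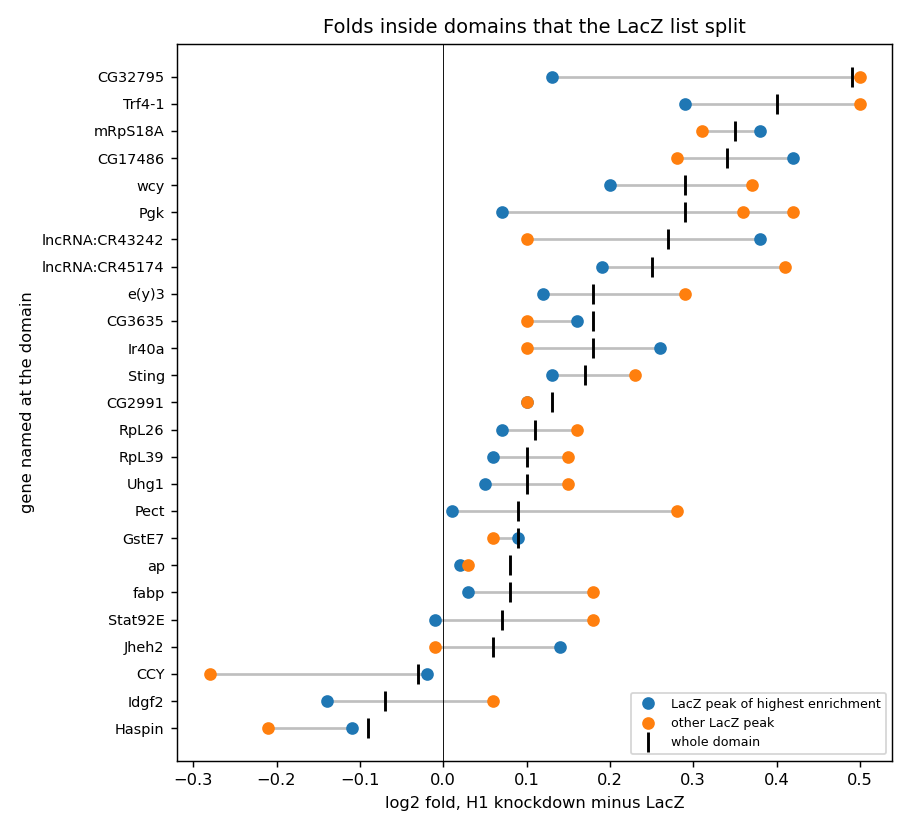
Each row is 1 of the 25 broad domains outside the histone array that the LacZ list split into pieces; the x axis is the log2 fold (H1 knockdown minus LacZ), blue for the piece of highest LacZ enrichment, orange for the others, with a black tick for the whole domain. The folds within a domain differ by up to 0.37, and at Pgk, Pect, fabp and Stat92E the strong piece lies near 0 and the others between 0.18 and 0.42.

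Strongly enriched domains had folds close together, and the calls fell at weakly enriched ones. The 25 domains with a LacZ enrichment of 20 or more had folds of 0.02 to 0.29 with a median of 0.08, and 0 were called. The 22 with an enrichment of 10 to 20 had -0.07 to 0.25 with a median of 0.075, and 0 were called. The 30 with 3 to 10 had 0.04 to 0.49, a median of 0.20 and 6 of the 9 calls. The 21 under 3 had -0.12 to 0.40, a median of 0.03 and 3 calls, and 10 of them were below 0; only 6 of the 21 lay within 1000 bp of a TSS. Over all 98 domains with a LacZ peak, the fold had a Pearson r of -0.18 and a Spearman rho of -0.15 with enrichment. With width r was 0.08 and rho 0.07 over 99 domains, and with mean concentration r was 0.03. These points share 4 libraries, so the correlations only describe them.

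**Figure D5:**
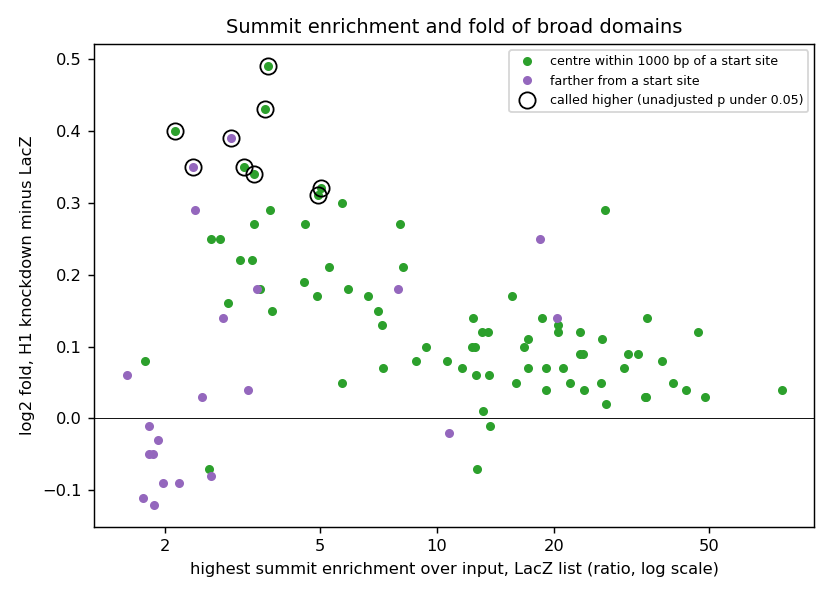
Highest LacZ enrichment over input of each broad domain (x axis, ratio, log scale) against its log2 fold (y axis, H1 knockdown minus LacZ), green within 1000 bp of a TSS and purple farther away, circled where the authors called it higher. All 9 calls lie at enrichments of 5.04 or less; the 25 domains at 20 or more have folds of 0.02 to 0.29.

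Of the 4755 gene names in the table, 94 were the nearest gene of a broad domain, and the listed gene families are given beside that. Of 20 heat shock and chaperone genes, 0 had a broad domain while 18 had an entry within 1000 bp, and of 20 hemocyte and secreted protein genes 0 had a domain and 15 an entry. The same was 0 and 13 of 15 for ecdysone response genes, 0 and 17 of 18 for signalling feedback genes, and 0 and 14 of 16 for cell cycle genes. The lists with 1 domain each were translation factors (eEF5; 12 more of 15 had an entry), cytoskeleton (Act5C; 14 more of 16), glycolysis (Pgk; 10 more of 12), oxidative phosphorylation (Cyt-c-p; 13 more of 15) and snoRNA hosts (Uhg1; 4 more of 14). The counts go by the gene of the nearest TSS. The domains at eEF1alpha1 and in Uhg2, both listed genes, are named by their snoRNAs and so are not among the listed genes with a domain. The counts also leave out the distal domain 2391 bp from the TSS of Act42A, a gene of the cytoskeleton list. The 94 names, in contrast, include those of distal domains.

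Folds on both sides of the width threshold overlapped. Of the members just inside it, 5 entries of 1509 to 1523 bp had folds of 0.06 to 0.40 in the authors' deposited table, those of Fatp1 (a fatty acid transporter, 0.08), the Haspin start in the LacZ list (0.25), snoRNA:Psi28S-2996 in RpL5 (0.06), Trf4-1 (0.40) and cdi (a kinase, 0.14). Just outside, 9 entries of up to 1496 bp had folds from -0.02 to 0.24 in the authors' deposited table. They included snoRNA:U3:54Aa and snoRNA:U3:54Ab, genes of the U3 snoRNA, each with -0.02, and vsg with 0.24.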

How the data were processed

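RNAPII and input libraries of H1 knockdown and LacZ cells were grouped by the labels. The submitters' processing notes name the build dm3 and the tools Bowtie2 2.2.2 (alignment), MACS 1.4.2 (peaks), DiffBind 2.10.0 and DESeq2. MACS2 stands in the peak names instead, so the version is unsettled. Homer gave the site annotation, per the file headers. The authors' deposited table gives log2 concentrations, their difference (fold), a p-value and an FDR per entry. The deposited peak lists give a fold enrichment ratio, a −log10 q, used for a peak threshold, and a score that was not used; the deposited pileup signal was not used. All tests are the authors'; a planned count fit was not run for want of values for single libraries.

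A domain joined entries overlapping by at least 1 bp, its width being end minus start, and took its values from the entry with the highest mean concentration. Named genes were the 10 most concentrated and 10 widest domains, the 10 of smallest p above 0 and the 5 below, the 5 largest and smallest folds, those within 25 bp of the threshold and list members; other names were chosen after values were seen. Members and lists were chosen with earlier results of these data known. A Release 6 RefSeq gene table paired names (4753 of 4755 matched) and gave overlaps between genes. Shares have exact Clopper-Pearson intervals, which cover counting error only. Merging, covered bases and strand were checked on simulated data. Analyses ran in Python 3.11.15 (pandas 2.3.3, scipy 1.17.1, numpy 2.4.6; figures in matplotlib 3.10.9). Promoter motifs were not analysed here.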

Additional observations from a re-analysis of the deposited data

How the results depend on the processing

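The number of domains called higher depended on the threshold: of 9 domains, 0 passed an FDR of 0.05 or of 0.25, and 1 an unadjusted p of 0.01. With a width minimum of 1000, 1200 or 2000 bp, 22 of 417, 18 of 238 and 5 of 38 domains were called higher (5.28%, 7.56% and 13.2%), and 0 lower. Widths of the LacZ list alone gave 4 of 58 called and a median fold of 0.07, and domains wide in both lists 3 of 48 called. Domains outside promoters had a median fold of 0.07. Wide entries of any annotation, repeats included, formed 404 regions with a median fold of -0.03, opposite in sign to the 0.10 of the domains. At a minimum of 1000 bp, 73.9% of domains lay at promoters and the Spearman rho of fold with concentration was -0.33, and at 1200 bp rho was -0.26; the cause was not tested. The direction of all 99 folds held with the widest entry, and with the entry of smallest p only Pgk changed its call. No paired analysis was possible because the deposited files hold no values per library, and leaving out a replicate was not run for the same reason.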
